A study of Populus trichocarpa with 18 samples.

Results

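Region 2 was compared with Region 1 in normal wood of Populus trichocarpa (black cottonwood). Both are bands cut by laser from differentiating xylem, where young wood cells form their walls. The members were taken by their labels, as 3 libraries of Region 2 and 3 of Region 1, which are 6 of the 18 libraries of the series. Both groups were wild type, from trees of 5 to 12 months propagated from branch cuttings and grown under 16 h of light and 8 h of dark, and are labelled as differing in the band alone. A treatment text shared by all samples gives 21 days of stem bending for the trees of the spatial experiment. Each band was as wide as 3 mean libriform fibres, and about 1600000 µm2 of it, cut from 16 µm sections of debarked stem, was pooled for each biological replicate. Replicate 1, 2 and 3 each gave 1 library per region. How many trees stand behind a replicate, whether the normal wood came from bent or unbent trees and which region lies nearer the cambium is left unsaid in the labels. A difference in levels cannot be told apart from a different mix of fibres, vessels and rays in a band, since each library pools all cells in it.

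Wood forms as cells leave the cambium, expand within a thin primary wall and then lay down a thick secondary wall. Cellulose synthase complexes spin cellulose at the plasma membrane, with sucrose synthase and accessory proteins acting in its supply and assembly. Xylan is the main hemicellulose of this wall in broadleaf trees. Monolignols, made from phenylalanine, are polymerised into lignin, and NAC and MYB transcription factors switch the programme on. Vessels die early in this sequence and fibres later.

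The libraries were shallow. In Region 1 replicates 1 to 3 held 13504, 11442 and 11275 counts, and in Region 2 they held 20080, 8852 and 7427. The summed totals were close, at 36221 and 36359 counts, but replicate 1 supplied 55.2% of those of Region 2. A count of 3 equals 149 to 404 CPM (counts scaled to a library total of 1000000) in these 6 libraries, so levels below that cannot be read. Of the 6763 genes listed in the normal table, 318 had enough counts to be tested.

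No gene passed the test between Region 2 and Region 1. The edgeR quasi-likelihood test, fitted over the 9 normal libraries with the replicate as a block, called 0 of 318 genes (0.0%) at an adjusted p under 0.05, and its smallest adjusted p was 0.830. DESeq2 called 0 of 318 (0.0%) as well. Without adjustment, 13 genes (4.09%) had an edgeR p under 0.05, 6 of them with positive and 7 with negative log2 fold changes, against 3 genes in DESeq2. The log2 fold changes of all genes had a median of -0.02, with 155 above 0 (48.7%) and 163 below. They ran from -1.61 to 1.31, as the plot of fold changes against level shows.

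**Figure D1:**
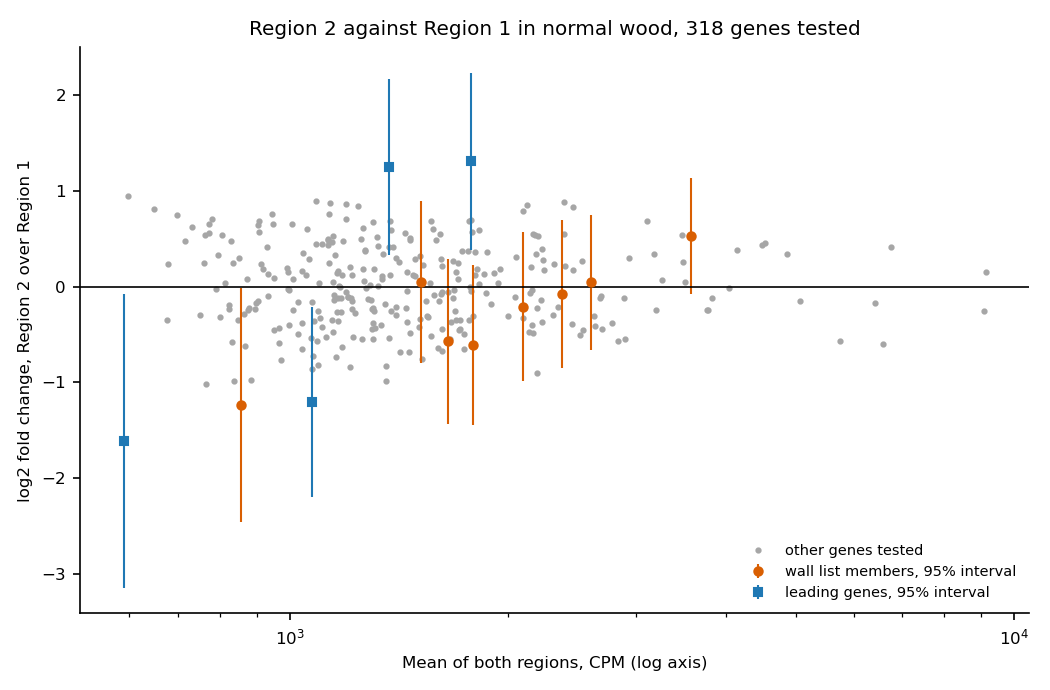
The log2 fold change of Region 2 over Region 1 (vertical axis) is plotted against the mean level in CPM (log axis) for the 318 genes tested. Orange circles are the 8 tested members of the wall lists, with 95% intervals. Blue squares are the 2 leading genes in each direction with the same sign in 3 of 3 replicates, also with 95% intervals. Points lie evenly about 0, from -1.61 to 1.31.

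These data leave room for moderate differences in most genes. The median standard error of a log2 fold change was 0.45. The 95% interval lay wholly within a 2-fold change in either direction for 74 of 318 genes (23.3%), within 3-fold for 269 (84.6%) and within 4-fold for 308 (96.9%). Only 2 genes had an interval within 1.5-fold. A difference larger than 4-fold was thus outside the interval of 308 of the genes tested.

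The 8 most abundant genes gave the tightest estimates. Their mean levels ran from 4857 to 9136 CPM and their log2 fold changes from -0.60 to 0.42, with standard errors of 0.18 to 0.26. The outermost bounds of their intervals were -1.05 and 0.86. All 6 genes with the narrowest intervals were among them. Of the 8, 2 had an unadjusted edgeR p under 0.05, against 13 of all 318 genes tested (4.09%), and none was called. In none of the 8 did the libraries of the 2 regions separate. Of all 318 genes, 19 (5.97%) were higher and 20 (6.29%) lower in Region 2 without overlap.

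No common pattern of change could be seen across the 3 replicates. Counting noise at these library totals lowers such correlations, so a shared pattern could be missed. The log2 ratio of Region 2 to Region 1 was computed in each replicate for the 318 genes, with 0.5 added to each count. Across genes, which are not independent replicates, Pearson's r was 0.070 between replicates 1 and 2, 0.005 between 1 and 3, and -0.050 between 2 and 3. Ratios had the same sign in 163, 166 and 165 of the 318 genes in these pairs (51.3%, 52.2% and 51.9%). Each replicate alone showed 39, 59 and 56 genes beyond a 2-fold difference. In all 3 replicates the ratio was above 0 for 46 genes (14.5%) and below 0 for 42 (13.2%).

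**Figure D2:**
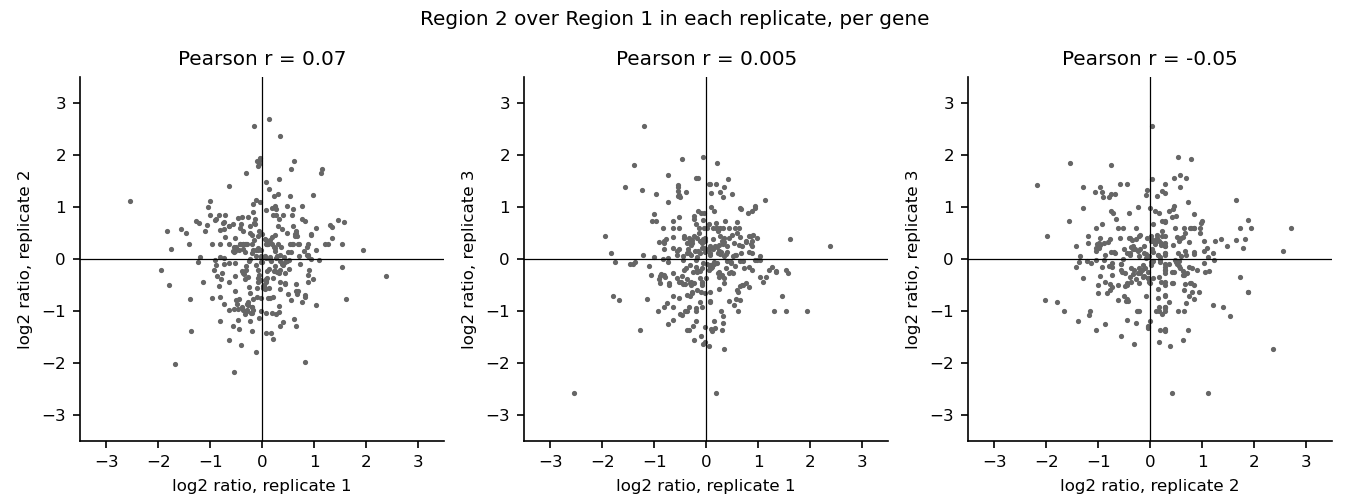
Each panel plots, for the 318 genes tested, the log2 ratio of Region 2 to Region 1 in 1 replicate against that in another. The clouds are round, with Pearson's r of 0.070, 0.005 and -0.050.

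Whole profiles did not separate by region in their rank correlations. Over the 6763 listed genes the Spearman correlation was 0.497 to 0.522 between libraries of Region 1 and 0.473 to 0.511 between those of Region 2. Between the regions it was 0.463 to 0.522 for libraries of the same replicate and 0.478 to 0.506 for other pairs. The ranges within and between regions thus overlap. Each library had a count for only 1907 to 3197 of these genes. Genes at 0 and depth therefore weigh on these values, and a difference between regions could be missed. All 15 pairs of libraries differed by more than counting noise (chi-square over degrees of freedom 2.22 to 2.66), so none was taken for a duplicate.

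Genes of wood formation were read through 8 lists of 94 identifiers written down from memory of published poplar work, with no annotation to check them against. The normal table lists 63 of them. Roles below are those of a list, not annotations of single identifiers. Only 8 members passed the filter of the main test, 0 of these 8 were called, and their median log2 fold change was -0.14 against -0.02 for all genes tested. Lower counts were read from a second fit at a minimum count of 3, which tested 849 genes and called 0 (0.0%), with 37 (4.36%) at an unadjusted p under 0.05. That fit held 28 list members, 8 with positive and 20 with negative log2 fold changes (median -0.28), against 394 positive (46.4%) and 455 negative (53.6%) of all 849 genes (median -0.08).

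**Figure D3:**
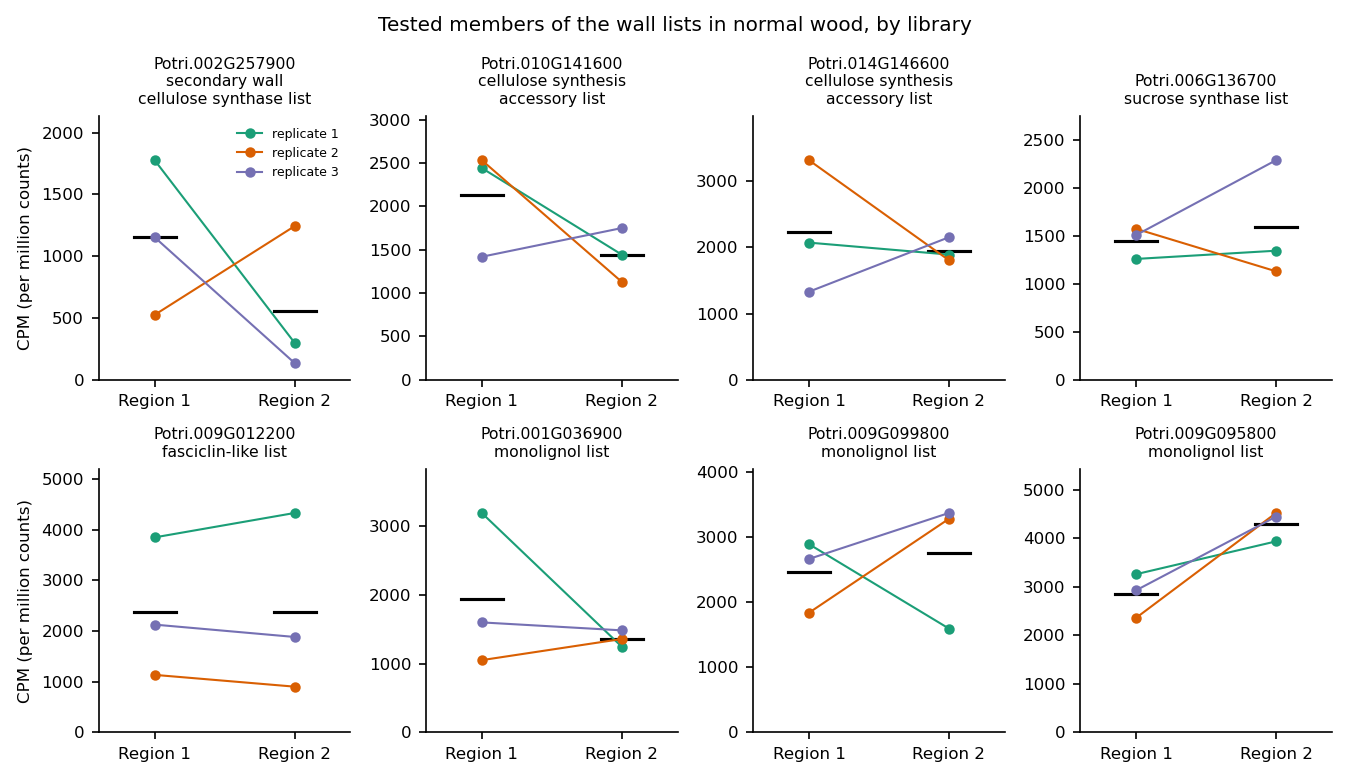
Levels in CPM (vertical axes, from 0) of the 8 tested list members are shown in Region 1 and Region 2, with lines joining the libraries of a replicate and black bars at the group means. Only in the last panel, Potri.009G095800, do all Region 2 libraries lie above all Region 1 libraries.

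Cellulose synthases of the secondary wall build the cellulose of thickened fibre walls. All 5 identifiers of this list occur in the table, and in the 3 replicates they held 36, 25 and 26 counts together in Region 1 and 26, 18 and 8 in Region 2. Their share of all counts was 0.239% ± 0.025 in Region 1 and 0.147% ± 0.050 in Region 2 (SD, n = 3). It was lower in Region 2 in each replicate, and the 2 groups did not overlap, which held for no other of the 8 lists. Of the 318 single genes tested, 42 (13.2%) were lower in each replicate and 20 (6.29%) were lower without overlap. The difference in the share of the list was not tested. With so few counts the share of Region 2 replicate 3 rests on 8 counts.

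The member with the most counts in these 6 libraries was Potri.002G257900.v4.1. Its level was 1777, 524 and 1153 CPM in Region 1 and 299, 1243 and 135 CPM in Region 2. Replicates 1 and 3 were lower in Region 2 and replicate 2 was higher, so the groups overlap. Its log2 fold change was -1.23 (SE 0.62, 95% interval -2.45 to -0.02, edgeR adjusted p = 0.830), the largest in size among the tested list members. Over the fits that left out 1 library or replicate it ran from -2.71 without replicate 2 to -0.44 without Region 2 replicate 1. Without replicate 1 the gene fell below the filter and had no estimate. Its smallest adjusted p, 0.177 at -2.58 without Region 2 replicate 2, missed the threshold. In the second fit Potri.011G069600.v4.1 had -0.90 (interval -3.31 to 1.51) and Potri.004G059600.v4.1 had -0.08 (interval -1.33 to 1.17). All 3 readable members had negative estimates and none was called, but Potri.004G059600.v4.1 held 21 counts in Region 1 and 23 in Region 2. Of the 87 counts of the list in Region 1 and 52 in Region 2, Potri.002G257900.v4.1 held 43 and 18.

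Cellulose synthases of the primary wall, active in expanding cells, were close to the counting limit. The 6 of 11 identifiers listed held 6 counts in Region 1 and 8 in Region 2, and none could be tested. Cellulose synthesis accessory proteins had 4 of 6 identifiers listed, of which 2 were in the main test and 3 in the second fit. Read in the second fit alone, Potri.003G151700.v4.1 had a log2 fold change of 0.43 (interval -1.51 to 2.37, edgeR adjusted p = 0.958). Potri.010G141600.v4.1 stood at 2444, 2534 and 1419 CPM in Region 1 and 1444, 1130 and 1750 CPM in Region 2 (log2 fold change -0.61, SE 0.42, edgeR adjusted p = 0.830). Replicates 1 and 2 were lower in Region 2 and replicate 3 was higher, a split also seen in Potri.014G146600.v4.1 (log2 fold change -0.21, 95% interval -0.98 to 0.57). Sucrose synthase supplies UDP-glucose for cellulose, and its tested list member, Potri.006G136700.v4.1, had a log2 fold change of 0.05 with an interval from -0.80 to 0.90.

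Fasciclin-like arabinogalactan proteins are cell surface glycoproteins abundant in developing xylem. Of 20 identifiers 13 are listed, 1 of them without a count in these 6 libraries, and the list took 0.583% ± 0.179 of counts in Region 1 and 0.615% ± 0.217 in Region 2 (SD, n = 3). The member in the main test, Potri.009G012200.v4.1, was at 3851, 1136 and 2129 CPM in Region 1 and 4333, 904 and 1885 CPM in Region 2. The replicates kept their order in both regions, and differed more from each other than the regions did. Its log2 fold change was -0.07 (SE 0.39, 95% interval -0.84 to 0.70, edgeR adjusted p = 0.948).

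The neighbouring identifier Potri.009G012100.v4.1 had the largest positive estimate among list members. It had 2, 3 and 6 counts in Region 1 and 26, 7 and 10 in Region 2, or 148, 262 and 532 against 1295, 791 and 1346 CPM. Every Region 2 library lay above every Region 1 library, as in 19 of the 318 genes of the main test (5.97%). That share was not computed for the second fit. Its log2 fold change in the second fit was 1.88 (SE 0.64, 95% interval 0.63 to 3.13). Potri.009G012100.v4.1 was not called (edgeR adjusted p = 0.549, the smallest over the 849 genes). How the counting split tags between similar genes of this family is not stated, so both identifiers are uncertain in that respect. The other 4 members of the second fit that were below the main filter ranged from -0.41 to 0.47.

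**Figure D4:**
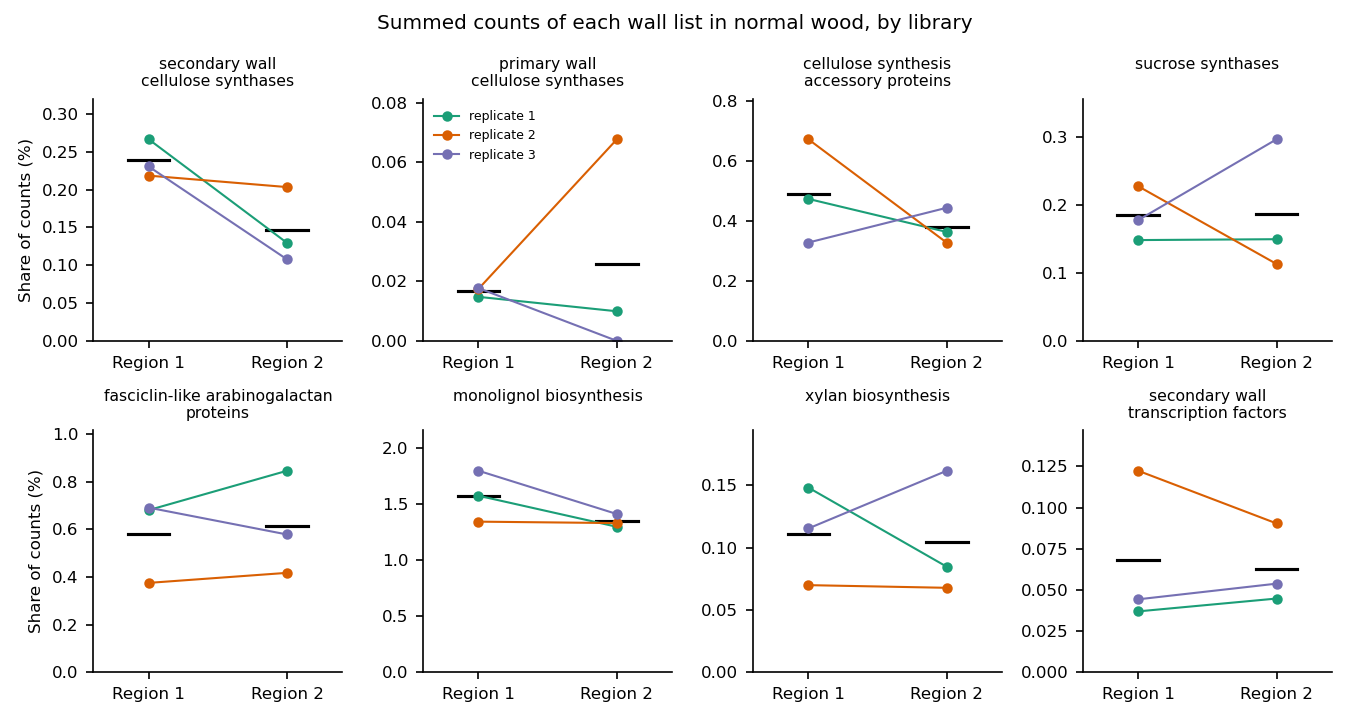
Summed counts of each of the 8 lists are shown as a percent of all counts of the library (vertical axes, from 0), with lines joining the libraries of a replicate and black bars at the means. The secondary wall cellulose synthases lie lower in Region 2 in each replicate, and the other lists overlap.

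Enzymes of monolignol synthesis formed the largest list by counts, with 21 of 23 identifiers listed. Together they held 213, 154 and 203 counts in Region 1 and 261, 118 and 105 in Region 2, or 1.57% ± 0.23 and 1.35% ± 0.06 of all counts (SD, n = 3). The share was lower in Region 2 in 3 of 3 replicates, with overlapping groups. In the second fit 9 of 12 members had negative and 3 positive log2 fold changes, with a median of -0.49 against -0.08 for all 849 genes, and none was called.

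Potri.009G095800.v4.1 had the largest positive estimate of the monolignol list in the main test. It was at 3258, 2360 and 2927 CPM in Region 1 and 3934, 4519 and 4443 CPM in Region 2, or 2848 ± 454 and 4299 ± 318 CPM (SD, n = 3). Every Region 2 library lay above every Region 1 library, as in 19 of the 318 genes tested (5.97%). The log2 fold change was 0.53 (SE 0.31, 95% interval -0.07 to 1.13, edgeR adjusted p = 0.830), so the difference did not pass the test.

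The other tested monolignol members overlapped between regions. Potri.001G036900.v4.1 was at 3184, 1049 and 1596 CPM in Region 1 and 1245, 1356 and 1481 CPM in Region 2 (log2 fold change -0.57, SE 0.44, edgeR adjusted p = 0.830). Its estimate rests on replicate 1 of Region 1, without which it was 0.06. Potri.009G099800.v4.1 was at 2888, 1835 and 2661 CPM in Region 1 and 1594, 3276 and 3366 CPM in Region 2, lower in replicate 1 and higher in replicates 2 and 3 (log2 fold change 0.05, 95% interval -0.66 to 0.75).

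Of the 9 members read in the second fit alone, 2 were lower in Region 2 in each replicate, and neither was called (edgeR adjusted p = 0.896 for both). Of the 318 genes of the main test, 42 (13.2%) were lower in each replicate and 20 (6.29%) were lower without overlap. These shares were not computed for the 849 genes of the second fit. Potri.005G117500.v4.1 was at 370, 612 and 532 CPM in Region 1 and 249, 339 and 135 CPM in Region 2 (log2 fold change -1.05, 95% interval -2.69 to 0.58), and the groups did not overlap. Potri.010G224100.v4.1 was at 222, 612 and 710 CPM in Region 1 and 49.8, 339 and 539 CPM in Region 2 (log2 fold change -0.96, interval -2.64 to 0.72), with overlapping groups. These levels rest on 1 to 8 counts a library. Potri.006G033300.v4.1 had 9, 15 and 41 counts in Region 1 and 20, 6 and 5 in Region 2 (log2 fold change -0.98, 95% interval -1.97 to 0.01). Potri.001G304800.v4.1 had 11, 32 and 11 counts against 25, 5 and 2 (log2 fold change -0.91, interval -1.96 to 0.13). In each of the latter 2 genes the high count of Region 1 came from 1 library, and replicate 1 was higher in Region 2.

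**Figure D5:**
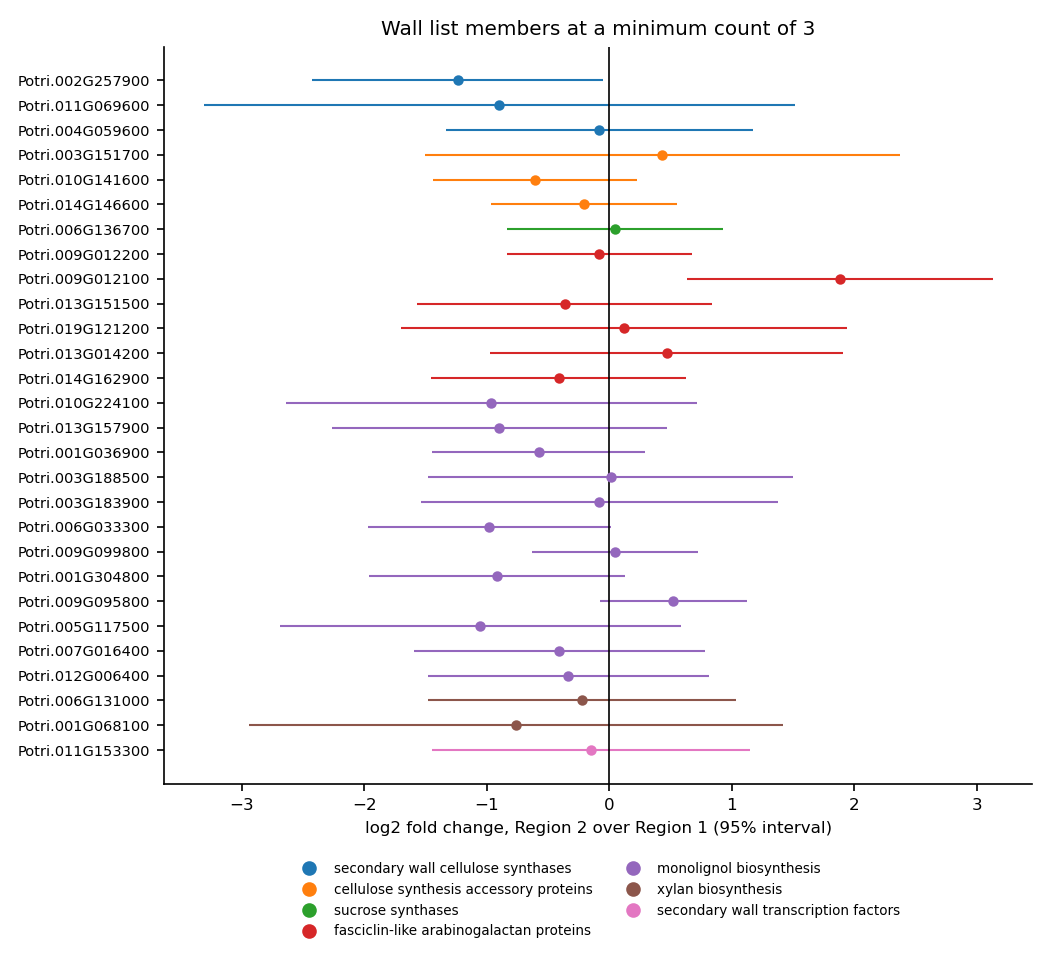
Log2 fold changes of Region 2 over Region 1 with 95% intervals are shown for the 28 list members of the fit at a minimum count of 3, coloured by list. Of the 28, 20 lie below 0, and the intervals of Potri.002G257900 and Potri.009G012100 exclude 0 before adjustment.

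Xylan synthesis genes held 41 counts in Region 1 and 35 in Region 2 over 8 listed identifiers of 11. The 2 readable members, Potri.006G131000.v4.1 and Potri.001G068100.v4.1, had log2 fold changes of -0.22 and -0.76, with intervals from -1.48 to 1.03 and from -2.94 to 1.42. Of 16 identifiers for secondary wall transcription factors 4 are listed, with 24 and 21 counts. Potri.011G153300.v4.1 alone held 22 and 18 of these (log2 fold change -0.15, interval -1.45 to 1.15).

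The leading genes outside the lists carry no description in the files. Potri.007G130100.v4.1 had the largest positive estimate, with 815, 787 and 976 CPM in Region 1 and 946, 5648 and 1481 CPM in Region 2 (log2 fold change 1.31, SE 0.47, edgeR adjusted p = 0.830). A single library, replicate 2 of Region 2, stood far above the rest, and without it the estimate was 0.35. Potri.018G087900.v4.1 followed at 1.25 (SE 0.47), from 518, 350 and 1508 CPM to 1245, 1243 and 3366 CPM. Both genes were chosen among the 46 of 318 (14.5%) that were higher in Region 2 in 3 of 3 replicates. For Potri.018G087900.v4.1 replicate 3 was the highest in both regions, and the groups overlap.

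Among genes lower in Region 2 in 3 of 3 replicates, 2 led the negative estimates. Potri.014G129100.v4.1 was at 1111, 1049 and 532 CPM in Region 1 and 349, 226 and 269 CPM in Region 2 (log2 fold change -1.61, SE 0.78, 95% interval -3.14 to -0.08, edgeR adjusted p = 0.830). Potri.001G011900.v4.1 was at 2518, 787 and 1153 CPM against 747, 565 and 673 CPM (log2 fold change -1.20, SE 0.50), and without Region 1 replicate 1 its estimate was -0.64. In both genes all Region 2 libraries lay below all Region 1 libraries, as in 20 of 318 genes (6.29%). It held for 5 of the 6 genes that led the negative estimates. Choosing genes by size and common sign favours such separation, so it is no separate support. In Region 2 the former rests on 7, 2 and 2 counts and the latter on 15, 5 and 5.

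With the 3 libraries summed, 4286 genes had a count in Region 1 and 4332 in Region 2, and 2548 had one in both. Of 1738 genes counted in Region 1 alone, 1653 had at most 3 counts, and likewise 1736 of 1784 in Region 2 alone. Only 2 genes with at least 10 counts in Region 1 had none in Region 2, and 1 gene the reverse, each with 6 to 9 counts in its highest library. With each library thinned to 7427 counts, 2049, 1943 and 1933 genes were detected in Region 1 and 1976, 1875 and 1907 in Region 2. The means were 1975 ± 64.3 and 1919 ± 51.6 genes (SD, n = 3), and the number was lower in Region 2 in 3 of 3 replicates. A two-sided exact permutation test of 3 against 3 libraries, which leaves out the replicate pairing, gave p = 0.4. Its smallest possible p is 0.1, so it could not have passed a threshold of 0.05.

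Tension wood was used for 1 question, whether the change from Region 1 to Region 2 differs there. The same contrast within tension wood called 2 of 1171 genes (0.171%). The edgeR test of that difference over all 18 libraries called 0 of 573 genes (0.0%), with 56 at an unadjusted p under 0.05 and a smallest adjusted p of 0.202. Under scaling by library totals, 36 of the 573 had an unadjusted p under 0.05, and 0 were called. Potri.009G012200.v4.1, at 21661 ± 2611 and 21651 ± 3933 CPM in Regions 1 and 2 of tension wood (SD, n = 3), had a log2 fold change of 0.02 there (95% interval -0.13 to 0.16). Potri.009G095800.v4.1 had 0.07 in tension wood (interval -0.17 to 0.31). Its change in normal minus that in tension wood was 1.01 (SE 0.38, adjusted p = 0.358), read against a median of 0.43 over all 573 genes that scaling by library totals moved to -0.05. Potri.009G012100.v4.1 had 1470 ± 16.3 and 1942 ± 64.0 CPM in Regions 1 and 2 of tension wood (SD, n = 3) and a log2 fold change of 0.43 there (interval 0.03 to 0.83, edgeR adjusted p = 0.971). Its change in normal minus that in tension wood was 2.02 (SE 0.64, edgeR adjusted p = 0.282), which was not called. This value too is read against the median of 0.43 over all 573 genes. The 2 woods were prepared as separate tables, and wood and preparation cannot be told apart.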

How the data were processed

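Gene counts from laser-captured xylem were taken from 2 tables, 1 for each wood. The authors deposited whole-number counts per gene and library; per the labels' protocols the libraries were made with a QIAGEN UPX 3' kit, and the submitters' processing notes name STAR, featureCounts and UMI-tools, without their roles. Versions, genome build and whether a count is a read or a molecule are not stated, so limits from low counts cover counting error only. All columns matched a labelled sample (0 unused). The reference gene table matched 0 of the 6763 identifiers, so 19 lists that needed descriptions, markers of other tissues among them, were not used.

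Region 2 was compared with Region 1 in edgeR 4.0.16 (R 4.3.3) by quasi-likelihood F tests over the 9 normal libraries, with TMM factors, filterByExpr at a minimum count of 10, the replicate as a block and Benjamini-Hochberg adjustment. Intervals are 95%, from the F statistic. The code was tested on simulated data. The labels tie the regions of a replicate to each other; deviations of same-numbered libraries from their group means correlated by 0.081, -0.027 and -0.010 over the genes tested. Nothing says that replicates were separate trees, so p-values measure the spread between these samples, which may be technical. Named genes were the largest changes with the same sign in 3 of 3 replicates (at most 2 identifiers a direction, as none has a description), the most abundant, those with the narrowest intervals, and list members. Members, lists and tests were chosen with earlier results of these data known. Alternatives were DESeq2 1.42.0, other scalings and filters, thinning, no block, Regions 1 and 2 alone, and leaving out replicates or libraries.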

Additional observations from a re-analysis of the deposited data

How the results depend on the processing

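The count of 0 genes was the same under all 17 alternatives, with smallest adjusted p-values from 0.177 (without Region 2 replicate 2) to 1 (no filter, 6763 genes). Without the replicate block 0 of 318 genes were called (smallest adjusted p = 0.768), and the difference between the woods kept 0 calls under its 6 alternatives, also without the block (0.085). Of 307 estimates for 20 named genes under alternatives, 289 kept their direction and none was called. The other 18 turned sign, in 5 genes. A gene had no estimate where it fell below the filter, so each had estimates under 10 to 17 of the 17 alternatives. Potri.009G012200.v4.1 turned to 0.035 with no filter, 0.024 without the replicate block and 0.097 when thinned. Leaving out replicates or libraries gave ranges of -0.50 to 0.16 for that gene, -0.54 to 0.18 for Potri.014G146600.v4.1, -0.20 to 0.30 for Potri.006G136700.v4.1, -1.05 to 0.057 for Potri.001G036900.v4.1 and -0.30 to 0.54 for Potri.009G099800.v4.1. Without thinning, Region 2 minus Region 1 was -89.3 genes, against -55.7, but replicate 1 was higher in Region 2 (3197 genes against 2729). Counting only genes with at least 2 counts after thinning gave -35.7, with replicate 3 higher in Region 2 (1017 against 1004). Depth limits what can be read: 318 of 6763 genes were testable.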
